A study of Homo sapiens with 2 samples.

Results

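Collagens are the main structural proteins of the extracellular matrix. The collagen gene family was examined in HSC-3 cells, a human line from a squamous carcinoma of the tongue that had been labelled with red fluorescent protein by stable lentiviral transduction. The cells grew for a day either on uncoated plastic or on Myogel, a soluble protein extract of human uterus leiomyoma, and RNA of 3 wells (90000 cells seeded) was pooled in equal amounts for each surface. Each pool was read on 1 array of the Affymetrix type Human Genome U133 Plus 2.0, so the comparison of Myogel with plastic rests on 2 arrays and has no replicate check. A protocol label names uncoated plates for both samples, while the titles, the source names and the methods of the study give a Myogel coating for the second. All values come from 1 cell line.

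Members were all genes whose symbol has the form COL, a number, A and a number, read from probe sets with exactly 1 annotated gene symbol, without COL17A1, the transmembrane collagen of hemidesmosomes. This gave 43 genes of 19775 named genes, measured by 112 of 54613 probe sets. A gene was read from the brightest of its probe sets, by the mean of the log2 values, and 35 of the 43 genes had more than 1 probe set. Values are the linear intensities of the authors, the fold change (FC) is Myogel over plastic, and FC 1.5 or more in either direction is the threshold that the methods of the study name. No further filter on the calls was applied here, so the counts are not those of a list filtered in another way. The lowest value in the table was 1, which is a floor. The median signal of named genes, 142 linear units as the geometric mean of both arrays, separates brighter from dimmer genes below.

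Every collagen is a trimer of chains with a repeated glycine-X-Y sequence, each chain having its own gene. Fibrillar collagens such as types I, III and V form the fibers of connective tissue and are mostly made by fibroblasts. Epithelial cells lay down the type IV network of the basement membrane and the type VII anchoring fibrils that fasten it to the stroma, and other classes decorate fibrils, form filaments around cells or span the plasma membrane.

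No collagen gene that was bright by its brightest probe set differed there by FC 1.5 or more between the surfaces. Of the 43 genes, 14 lay at or above the median signal, and 0 of these 14 had FC 1.5 or more. Among all named genes at or above the median signal the share was 2.59%, so a count of 0 among 14 does not set the collagens apart. Below the median signal there were 29 collagen genes, of which 4 passed FC 1.5 upwards on Myogel, 4 passed it downwards and 21 did neither. All named genes below the median signal passed in 51.9% of cases and these 29 collagen genes in 27.6%. Over all named genes 9.71% were higher and 17.5% lower, together 27.3%. After quantile normalization or loess centring 9 collagen genes were higher and 3 were lower. Of all named genes 13.2% were then higher and 13.0% lower after the former, and 13.3% and 12.9% after the latter. The median log2 FC of the 43 genes was -0.01, against -0.07 for all named genes, while these scalings gave a collagen median of 0.10 and a median of all named genes of 0.00 and 0.01. In RNA of whole cultures, a lower value cannot tell fewer cells that make a transcript from less transcript in each cell.

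The spread between the arrays depended on signal. As its measure, the log2 FCs of the 1000 probe sets nearest in mean signal to each gene were taken, and their central 95% is called the range for its signal. All 43 collagen genes lay inside this range in their brightest probe set. Brightness also depends on the probe set, and the 5 probe sets of COL1A1 alone ran from 4.86 to 431 linear units on plastic. Values of different genes are therefore given side by side and are not ranked as amounts of RNA.

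**Figure D1:**
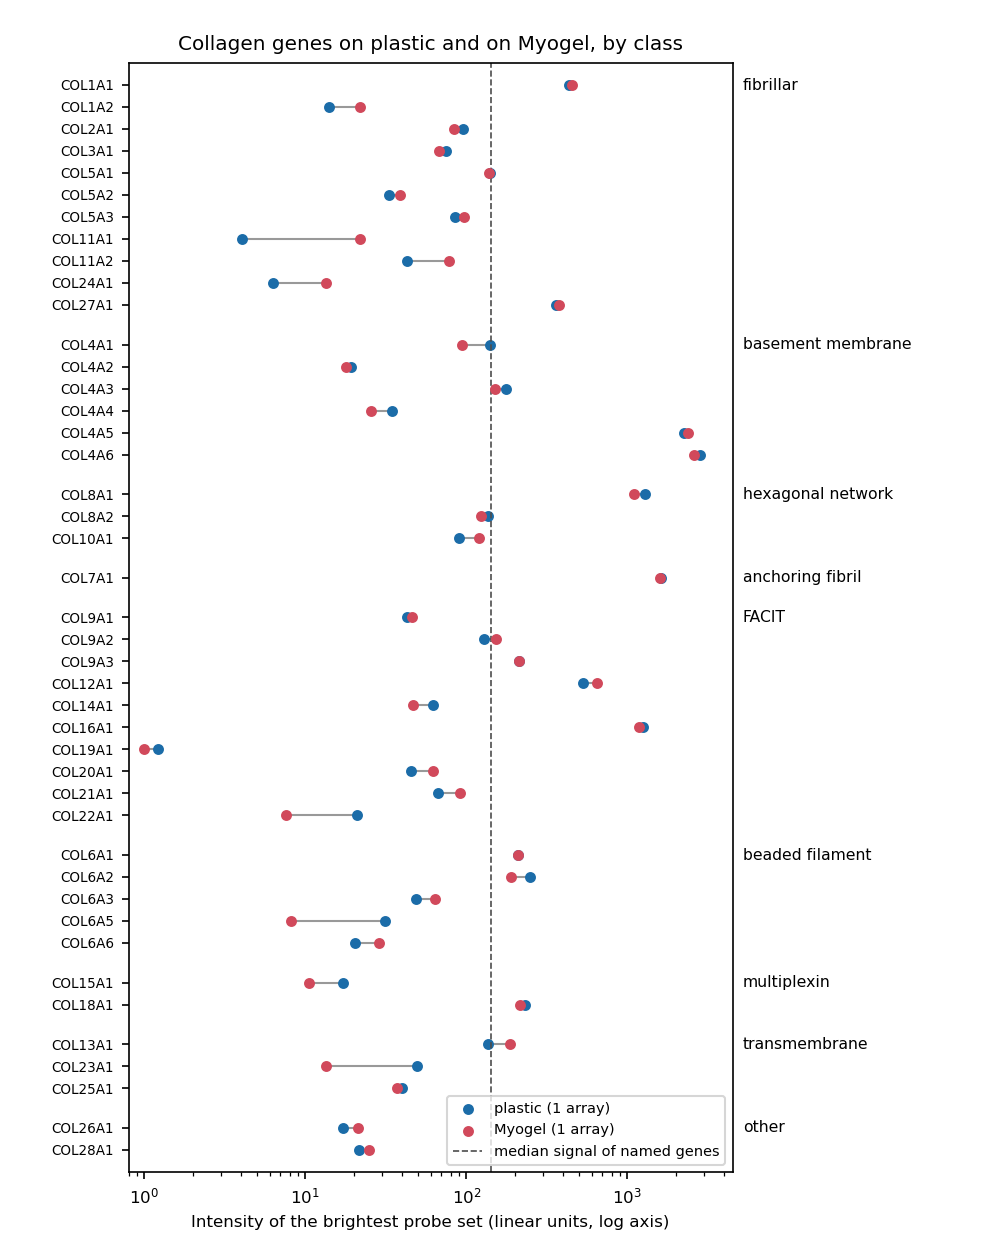
Intensity of the brightest probe set of each of the 43 collagen genes (x axis, linear units on a log axis) on plastic (blue) and on Myogel (red), 1 array each, grouped by collagen class; the dashed line marks the median signal of named genes. The paired points of the 14 genes whose geometric mean is at or above the line lie close together, and the wide gaps, as for COL11A1, COL6A5 and COL23A1, are to the left of it.

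Type IV collagen genes held the 2 brightest probe sets of the family, and no type IV gene reached FC 1.5 by its brightest probe set. COL4A5 and COL4A6 encode the alpha-5 and alpha-6 chains of type IV collagen, which assemble together in the basement membrane of squamous epithelia. COL4A5 had 2261 on plastic and 2391 on Myogel, a log2 FC of 0.08 inside the range for its signal (up to 0.37). Its second probe set was dim and lower in sign, with 40.5 on plastic and 28.1 on Myogel, a log2 FC of -0.53. COL4A6 had 2829 on plastic and 2606 on Myogel, a log2 FC of -0.12. COL4A3, a chain of the kidney and lung basement membranes, had 177 and 151 in its brightest probe set, a log2 FC of -0.23. In these brightest probe sets none of the 3 genes differed by more than the spread of probe sets of like signal. The second probe set of COL4A6, also bright, did, with 390 on plastic and 176 on Myogel, a log2 FC of -1.14 where the range was -0.68 to 0.65.

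The other type IV genes were dimmer and are described after their values were seen. COL4A1, which with COL4A2 forms the basement membrane collagen found in nearly all tissues, had 140 on plastic and 93.7 on Myogel, 1.49-fold less and just within the threshold. Its second probe set had 23.5 and 13.6, a log2 FC of -0.78. Both probe sets were lower on Myogel and both lay inside the ranges for their signals. COL4A2 had 19.2 on plastic and 17.8 on Myogel, and a second probe set went the other way, with 5.23 and 14.4. COL4A4, the usual partner of COL4A3, had 34.7 on plastic and 25.6 on Myogel. Of the 6 genes of this class, 5 had a lower value on Myogel and 1 a higher one, with a class median log2 FC of -0.17. After quantile normalization or loess centring COL4A2 was higher in sign with a log2 FC of 0.27, so that 4 were lower and 2 higher, and the class median was -0.10. By its brightest probe set no gene of the class reached FC 1.5 under either scaling.

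The 6 type IV genes lie as 3 head-to-head pairs, so that 2 genes start from 1 stretch of DNA in opposite directions. In RefSeq (GRCh38.p14) the starts of COL4A1 and COL4A2 on chromosome 13 have 126 bases between them, those of COL4A5 and COL4A6 on chromosome X have 379, and those of COL4A3 and COL4A4 on chromosome 2 have 418. The stretches before the plus-strand genes COL4A2, COL4A5 and COL4A3 are shown because they lie between the starts of paired genes whose values were described above. They are written 5′ to 3′ on the plus strand and end at the base before the start of the plus-strand gene. The first covers all bases between the starts (chr13:110307158-110307283), and the others the 250 bases nearest to the plus-strand gene (chrX:108439588-108439837 and chr2:227164374-227164623), of which 121 and 82 are also among the 250 bases before the start of the partner gene. Capitals mark the CCAAT box (CCAAT) and the GC box (GGGCGG) on either strand.
COL4A2: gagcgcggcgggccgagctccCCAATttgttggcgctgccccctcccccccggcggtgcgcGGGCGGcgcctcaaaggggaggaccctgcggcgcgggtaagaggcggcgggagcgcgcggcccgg
COL4A5: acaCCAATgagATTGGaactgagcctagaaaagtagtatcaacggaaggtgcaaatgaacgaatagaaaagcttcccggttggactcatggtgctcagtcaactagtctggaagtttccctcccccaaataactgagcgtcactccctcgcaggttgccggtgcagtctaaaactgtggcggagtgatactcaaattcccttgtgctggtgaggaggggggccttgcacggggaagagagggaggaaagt
COL4A3: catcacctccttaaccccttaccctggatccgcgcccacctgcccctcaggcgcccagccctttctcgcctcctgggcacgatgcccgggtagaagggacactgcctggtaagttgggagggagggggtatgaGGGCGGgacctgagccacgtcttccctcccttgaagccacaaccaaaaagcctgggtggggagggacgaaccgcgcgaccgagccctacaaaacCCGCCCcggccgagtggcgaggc

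G and C made up 51.2% of the stretch before the bright COL4A5, 80.2% of that before COL4A2 and 66.4% of that before COL4A3. The COL4A5 stretch held 2 CCAAT boxes and 0 GC boxes, that of COL4A2 held 1 of each and that of COL4A3 held 2 GC boxes and 0 CCAAT boxes. None of the 3 held a TATA motif (TATAAA) or the 7-letter AP-1 motif (TGANTCA) on either strand. No motif of the 4 contains another.

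COL7A1, the chain of the anchoring fibrils below squamous epithelium, was bright on both surfaces. It had 1622 on plastic and 1595 on Myogel, a log2 FC of -0.02, and its second probe set had 269.5 and 232.5, a log2 FC of -0.21. Both lay well within FC 1.5 and inside the ranges for their signals. Its 250 upstream bases (RefSeq, GRCh38.p14, chr3:48595330-48595579, minus strand) are shown as the promoter of the bright epithelial anchoring collagen, with the TATA motif and the GC box in capitals.
COL7A1: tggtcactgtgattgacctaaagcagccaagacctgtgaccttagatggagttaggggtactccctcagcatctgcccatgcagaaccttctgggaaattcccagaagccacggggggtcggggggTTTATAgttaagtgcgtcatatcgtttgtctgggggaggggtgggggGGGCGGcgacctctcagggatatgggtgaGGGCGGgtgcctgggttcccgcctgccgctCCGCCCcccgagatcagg

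This stretch held 1 TATA motif, read on the opposite strand, and 3 GC boxes. In windows of 300 bases, from 250 before to 50 after a RefSeq start, 31 of the 43 collagen genes had an entry, with 43 windows in all. Of these windows, 7 (16.3%) held TATAAA, 13 (30.2%) CCAAT, 24 (55.8%) GGGCGG and 1 (2.33%), of COL10A1, TGANTCA. Over all 35116 windows of this length the shares were 11.5%, 34.6%, 45.0% and 7.71%. A match of letters is a description of the window and not a site in use.

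Among the fibrillar collagens, COL1A1 and COL27A1 were bright and almost equal on both surfaces. COL1A1, the main chain of type I collagen in skin and bone, had 431 on plastic and 454 on Myogel, a log2 FC of 0.08. Its other 4 probe sets ran from 4.86 to 127 on plastic, with log2 FCs from -0.21 to 0.72. COL27A1, a fibrillar chain of cartilage, had 362 and 375, a log2 FC of 0.05, and its next 2 probe sets, at 147 and 134 on plastic, had log2 FCs of 0.01 and -0.04. The dimmer pair of its 5 probe sets had log2 FCs of -0.79, which is lower by FC 1.5, and 0.11.

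All 4 collagen genes that were higher by FC 1.5 in the values as deposited belong to the fibrillar class, and all 4 were dim. Of the 11 fibrillar genes 9 were dim, and of 9887 dim named genes 1829 were higher by FC 1.5. After quantile normalization or loess centring these 4 were again higher, and so were 5 genes of other classes, COL6A3, COL6A6, COL20A1, COL21A1 and COL26A1. COL11A2, a chain of cartilage type XI collagen, had 42.6 on plastic and 78.2 on Myogel, 1.83-fold more, but its second probe set had 30.4 and 25.6. COL11A1 had 4.06 and 21.8, and the 2 dimmer probe sets had log2 FCs of -3.19 and 3.06, each with 1 array at the floor. COL1A2, the partner chain in type I collagen, was 1.55-fold higher with 21.7 on Myogel, while its other probe sets were lower, with log2 FCs of -1.81 and -0.65. COL24A1 had 6.31 and 13.4 from its single probe set. In the 3 genes with several probe sets, at least 1 was lower in sign, except that both probe sets of COL11A2 were higher after quantile normalization or loess centring.

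The remaining fibrillar genes lay within FC 1.5 by their brightest probe sets. COL5A1, a type V chain that regulates the width of fibrils, had 140 on plastic and 139 on Myogel. COL3A1, the chain of type III collagen in distensible tissues, had 74.4 and 67.2, COL2A1 of cartilage had a log2 FC of -0.18, COL5A2 had 32.9 and 38.5, and COL5A3 had 85.0 and 96.7. The second probe set of COL5A2 was lower, with 45.9 on plastic and 9.20 on Myogel. That of COL2A1 was higher, with the floor of 1 and 2.44, and COL3A1 had dimmer probe sets past FC 1.5 in both directions. The class median log2 FC was 0.19, with 8 genes higher and 3 lower in sign, 4 higher and 0 lower by FC 1.5. Quantile normalization and loess centring each gave 10 positive and 1 negative log2 FC, and COL3A1 and COL5A1 were the genes that turned, with the counts by FC 1.5 as before.

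Types VIII and X form hexagonal networks, the former in the matrix around endothelium and in other tissues, and COL8A1 was the bright gene of this class. COL8A1 had 1288 on plastic and 1103 on Myogel, a log2 FC of -0.22, and its 2 dimmer probe sets were lower too, with log2 FCs of -0.26 and -0.51. COL8A2, its partner chain, had 136 and 123 in its brightest probe set. Its second probe set had 84.0 and 9.84, a log2 FC of -3.09 outside the range for its signal (-1.97 to 1.76), so the 2 probe sets of this gene did not give like changes. COL10A1, the collagen of hypertrophic cartilage, had 90.2 and 120.4, and its second probe set went from 8.45 to 3.52.

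The FACIT collagens lie on the surface of fibrils and link them to other matrix. COL16A1 had 1241 on plastic and 1172 on Myogel, a log2 FC of -0.08, from its single probe set. COL12A1, which associates with type I collagen in tissue under tension, had 529 and 652, which is 1.23-fold higher. Its second probe set was level, with 320 and 309.5, and the 3 dimmer ones were lower, the dimmest with 23.2 on plastic and the floor of 1 on Myogel. COL9A3, a chain of type IX collagen in cartilage, had 212 and 211. Another 6 FACIT genes were dim and within FC 1.5 by their brightest probe sets. These were COL9A1, COL9A2, COL14A1, COL19A1, COL20A1 and COL21A1, and COL19A1 was at the floor on Myogel with 1.22 on plastic. Other probe sets were lower by FC 1.5 in COL9A1, COL14A1 and COL20A1. Those of COL9A1 and COL20A1 had 20.45 and 37.8 on plastic and the floor of 1 on Myogel, and COL14A1 had log2 FCs of -2.24 and -1.32. COL22A1 was lower, with 21.0 on plastic and 7.57 on Myogel, and all 3 of its probe sets were lower in sign.

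Type VI collagen forms beaded filaments around cells, built from the chains of COL6A1, COL6A2 and a further gene of the class. COL6A1 had 210.2 on plastic and 209.0 on Myogel, a log2 FC of -0.01. It had the most probe sets of the family, 8, and all 8 were lower in sign on Myogel, with log2 FCs down to -1.18 and 4 of them lower by FC 1.5. After quantile normalization its brightest probe set was higher in sign, with a log2 FC of 0.09. COL6A2 had 247 and 188, which is 1.32-fold lower, and its second probe set had a log2 FC of -0.30. COL6A3 had 48.6 and 63.8 from 1 probe set. COL6A1 and COL6A2 are neighbours on chromosome 21 and both lay inside the ranges for their signals. COL6A5 had 31.2 and 8.20, while its second probe set rose in value from the floor of 1 to 17.2. COL6A6 had 20.2 and 28.8, and its second probe set 17.3 and 9.67.

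In the multiplexins, whose C-terminal fragments restrain vessel growth, COL18A1 had 230 on plastic and 214 on Myogel. Its second probe set gave 165 and 151, and the log2 FCs of the pair, -0.10 and -0.13, were nearly equal. COL15A1 had 17.2 and 10.6, which is 1.63-fold lower, from 1 dim probe set, and it lay within FC 1.5 after quantile normalization, with a log2 FC of -0.30. Among the transmembrane collagens, COL13A1, a chain at cell-matrix contacts, had 137 on plastic and 186 on Myogel, 1.36-fold more, with its 3 probe sets all higher in sign. COL23A1 had 49.7 and 13.4, which is 3.71-fold lower, and COL25A1, a collagen of neurons, had 39.8 and 37.2. COL26A1 and COL28A1, which fit no other class, had values of 17.2 and 21.5 on plastic and 21.1 and 24.7 on Myogel. Their second probe sets were lower on Myogel, that of COL26A1 with 12.9 and 2.28 and that of COL28A1 with 24.6 and the floor of 1.

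**Figure D2:**
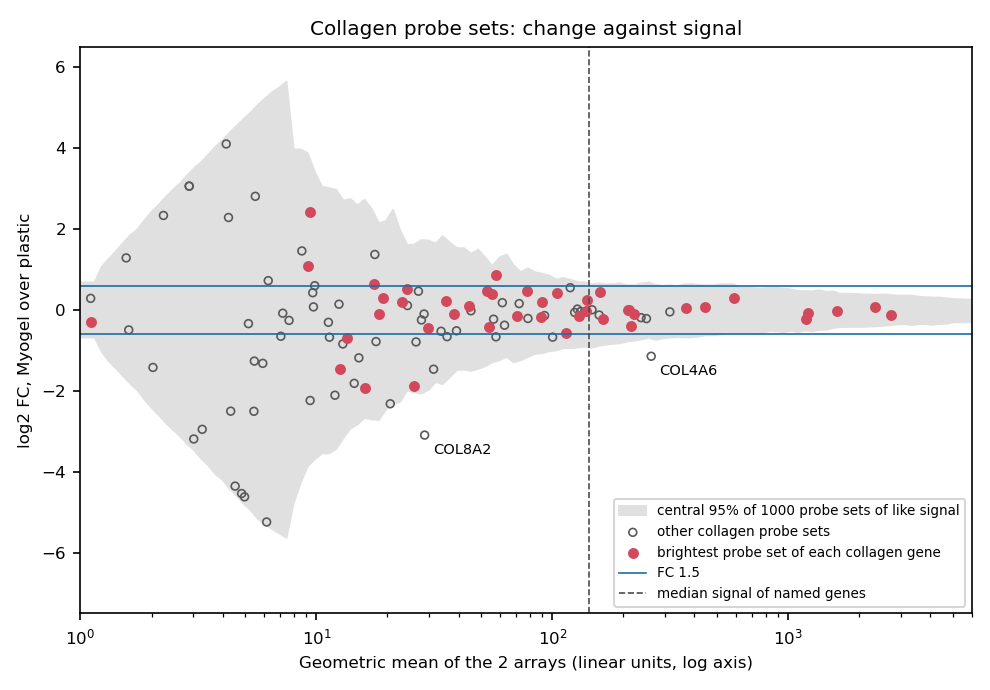
Change between the surfaces as log2 FC (Myogel over plastic, y axis) against the geometric mean of both arrays (x axis, linear units on a log axis) for the 112 collagen probe sets; red points are the brightest probe set of each of the 43 genes, open circles the others, grey the central 95% of the 1000 probe sets nearest in signal, and blue lines FC 1.5. Right of the dashed median line 1 probe set, of COL4A6, is beyond FC 1.5, and the probe sets of COL4A6 and COL8A2 that are named lie outside the grey band.

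With a lower threshold of FC 1.2, 2 of the 14 brighter collagen genes were higher, COL12A1 and COL13A1, and 1 was lower, COL6A2. By this threshold, 8.93% of all named genes of like or greater brightness were higher and 13.5% lower. These 3 genes lay inside the ranges for their signals. The median log2 FC of the 14 genes was -0.02, against -0.03 for all genes at or above the median signal.

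Probe sets of the same gene on the same arrays give a further reading, though they are not replicates of the cultures. Of the 112 collagen probe sets, 15 were higher and 31 lower by FC 1.5, together 41.1%, against 38.0% of all probe sets. Outside the range for its signal lay 2 of 112, those of COL4A6 and COL8A2, against 4.32% of all probe sets. That of COL4A6, described above, was the 1 lower by FC 1.5 among 6 bright collagen probe sets that were not the brightest of their gene. It carries the suffix _s_at, given to probe sets that may bind several transcripts. The brightest probe sets of the bright genes COL1A1, COL4A3, COL4A5, COL6A1, COL9A3, COL13A1 and COL18A1 carry this suffix too. The 2 other COL4A6 readings were log2 FCs of -0.12 and -0.19, so that the brightest reading and the second one of this gene differed by over FC 1.5.

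The 2 brightest probe sets had the same sign in 13 of 35 collagen genes (37.1%), against 54.5% of 10523 named genes with at least 2 probe sets. Where the second probe set was also at or above the median signal, the sign was shared in 4 of 5 collagen genes, COL4A6, COL7A1, COL18A1 and COL27A1, and not in COL12A1. In 6 genes, COL1A2, COL3A1, COL4A3, COL6A5, COL11A1 and COL25A1, 1 probe set was higher and another lower by FC 1.5. All probe sets were lower in sign on Myogel in 9 of the 35 genes (25.7%), which were COL4A1, COL4A6, COL6A1, COL6A2, COL7A1, COL8A1, COL8A2, COL18A1 and COL22A1, and all were higher in COL13A1 alone (2.86%). Over all named genes these shares were 26.4% and 10.4%. After quantile normalization the counts were 6 (17.14%) and 5 (14.29%). Shares of all named genes were then 17.95% and 16.42%, so these too moved with the scaling. The collagen genes that no longer had all probe sets lower were COL6A1, COL6A2 and COL8A1.

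**Figure D3:**
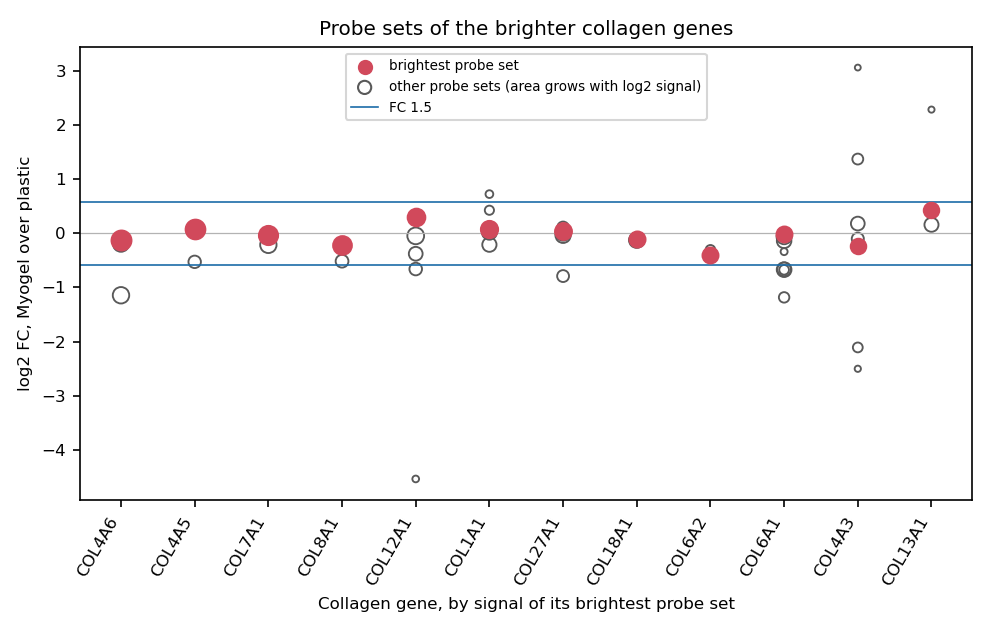
Change between the surfaces as log2 FC (Myogel over plastic, y axis) of every probe set of the 12 brighter collagen genes that have more than 1, ordered from left to right by the signal of the brightest (red); open circles are the other probe sets, with an area that grows with log2 signal, and blue lines mark FC 1.5. All red points lie between the blue lines, and most circles beyond the lines are small, except the larger circle of COL4A6 at -1.14.

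Myogel itself contains collagen, and the protein table of the study lists chains of 15 of the 43 genes in it. That table gives names without amounts, and a chain that is not listed may still be present. COL4A1 is not listed, while COL4A2, with which it assembles, is. The family was split by this list as a description. Of the 15 genes, 1 was higher (COL1A2) and 1 lower (COL15A1) by FC 1.5, and of the 28 others 3 were higher and 3 lower. The medians of the log2 FC were -0.02 and 0.02. The 6 brighter genes among the 15, COL1A1, COL6A1, COL6A2, COL7A1, COL12A1 and COL18A1, ran from -0.40 to 0.30.

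Markers of carcinoma cells and of other cells that make collagen were read as well. The 5 measured markers of squamous carcinoma cells were all bright, and none passed FC 1.5 by its brightest probe set. In sign 4 were lower and 1 was higher on Myogel. KRT14, a basal keratin, had 18856 on plastic and 18224 on Myogel. KRT5 had 11907 and 10124.5, a log2 FC of -0.234 just below the range for its signal (down to -0.229). DSG3 had 1595 and 1169, a log2 FC of -0.45 inside its range. Other probe sets of DSG3 and CDH1 were lower by FC 1.5, with log2 FCs of -0.60 and -1.31, and those of SFN had 0.05 and -0.03. Of 8 fibroblast markers 0 were higher and 2 lower on Myogel by FC 1.5, while 4 were higher and 4 lower in sign. Their summed level, over probe sets of unlike brightness, was 592 on plastic and 465 on Myogel. Most of this difference came from the 2 markers lower by FC 1.5. These were FAP, a protease of activated fibroblasts and the bright marker of this list, with 196 and 111, and the dim TCF21, with 42.1 and 4.12. FAP lay inside the range for its signal, with a log2 FC of -0.83 (down to -0.93). TCF21 lay below its range, with -3.35 (down to -3.24), and its other probe set had 0.20. Of 8 smooth muscle markers 1 was higher and 1 lower, with sums of 1433 and 1485. The muscle intermediate filament DES had 43.0 and 63.5, and CNN1 (calponin) had 17.6 on plastic and was at the floor on Myogel. Of 6 endothelial markers 1 was higher and 3 were lower, with sums of 429 and 346. Of all named genes 27.3% passed this threshold, and of those below the median signal 51.9%. Below that signal lay 7 of the fibroblast, 4 of the smooth muscle and 5 of the endothelial markers. Only HSC-3 cells were seeded, so these are readings of such markers within 1 carcinoma line. Their relation to the collagen values was not tested.

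The machinery that makes, secretes, cuts and binds collagen was read from 8 lists with 73 measured genes. Of these, 4 were higher and 8 lower on Myogel by FC 1.5, all 12 below the median signal, and 0 of 41 genes at or above it passed. This is 16.4% of the 73 genes, below the 27.3% of all named genes, and 0 of 41 stands against 2.59%, so the counts do not set the machinery apart. The 12 genes were among 32 below the median signal, where 51.9% of all named genes passed. The median log2 FC of the 73 genes was 0.01. Of 31 further bright probe sets of these genes 1 was lower by FC 1.5. Chain folding and hydroxylation take place in the endoplasmic reticulum. Of 17 measured genes for it, 14 were bright and 1 was lower, the dim P4HA3. PLOD2, which hydroxylates lysines for later cross-links, had the largest change among the bright ones by the brightest probe set, with 2125 on plastic and 2699 on Myogel, but its other probe set, also bright, went the other way with 1883 and 1502. CRTAP, a partner in prolyl 3-hydroxylation, had the further bright probe set lower by FC 1.5, with 1284 and 775, while its brightest had 3177 and 3203. P4HB, the prolyl hydroxylase beta subunit, had 3099 and 2777, with log2 FCs of -0.44 and -0.43 in its other probe sets. SERPINH1, the collagen chaperone HSP47, had 513 and 506 and was chosen with these values known. Of 6 genes for secretion none passed, and KLHL12, which enlarges COPII vesicles for procollagen, had 2272 and 1883.

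Of 8 genes for removal of propeptides, 0 were higher and 4 were lower by FC 1.5. These were the dim TLL1, PCOLCE, ADAMTS2 and ADAMTS3, named after their values were seen, 4 of the 6 dim genes of the list. Of all dim named genes 33.4% were lower. ADAMTS2, a protease that trims the N-terminal propeptide, had 46.7 on plastic and 17.2 on Myogel, and ADAMTS3 had 28.3 and 11.3. The 2 other probe sets of ADAMTS2 were higher in sign, with log2 FCs of 1.31 and 0.29, as was the second one of TLL1, with 0.75. BMP1, the C-proteinase, was bright with 241 and 203, a log2 FC of -0.25, and its 6 dimmer probe sets ran from -1.45 to 0.49. None of 7 cross-linking genes passed, and LOX (lysyl oxidase) had 434.5 on plastic and 329 on Myogel, a log2 FC of -0.40.

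Of 9 measured receptor genes 1 was higher and 1 was lower, the dim LAIR1 and GP6, which are receptors of blood cells. ITGA10, a collagen-binding integrin chain, had 205 on plastic and 154 on Myogel, a log2 FC of -0.41. ITGA2 and ITGB1, which form an epithelial collagen receptor, had log2 FCs of -0.02 and 0.01 and were chosen with these values known. The other bright probe sets of ITGB1 had -0.36 and -0.30. The former, with 8095 on plastic and 6302 on Myogel, lay below the range for its signal (down to -0.30), and the latter lay at its edge. Among 7 collagenases and related proteases the dim MMP8 (13.1 on plastic and 67.3 on Myogel) and CTSK (109 and 171) were higher and the dim MMP13 (44.2 and 15.0) was lower, while MMP9, a gelatinase and the bright member with the largest change, had 297 and 245. Among 11 partners of fibrils the dim TNXB was higher, with 27.7 and 71.4, though its other probe sets had log2 FCs of -1.81 and -3.12, and the dim KERA, at the floor on Myogel, was lower, and PRELP, a leucine-rich repeat protein, had 3950 and 3386. No gene of the 8 in the list of transcription factors passed, and RFX1, a factor that binds collagen gene promoters, had 339 and 451, a log2 FC of 0.41.

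**Figure D4:**
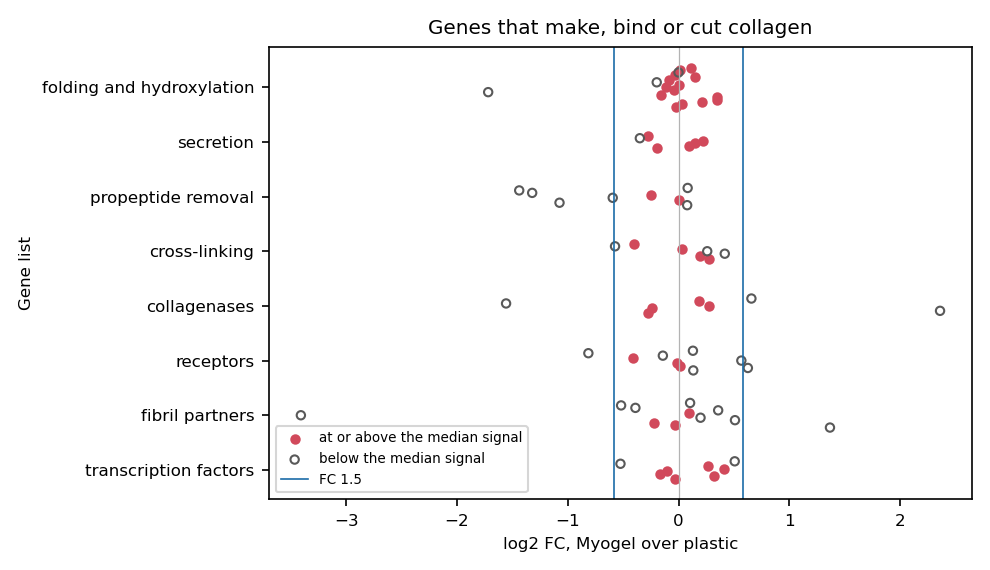
Change between the surfaces as log2 FC (Myogel over plastic, x axis) for 73 genes in 8 lists of collagen biology (y axis), from the brightest probe set of each; red points are genes at or above the median signal, open circles dimmer genes, and blue lines FC 1.5. All 41 red points lie between the blue lines.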

How the data were processed

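Gene expression was measured in 2 pooled RNA samples of HSC-3 cells, 1 from plastic and 1 from Myogel, each on 1 array. The authors deposited linear intensity values, for whose analysis the methods name dChip; its version and model, and how the arrays were scaled, were not stated in the sources. The samples were grouped by their titles. Controls (62 probe sets) were left out. Symbols came from the platform annotation, updated by Entrez identifier through RefSeq (GRCh38.p14): 41091 probe sets had 1 symbol, 1801 had several and 11721 are unnamed here. FC was taken without further scaling. The floor of 1 was reached by 2414 probe sets on the plastic array and 2581 on the Myogel array, and signal over background sets the precision of an array. No p-value was computed, since each surface has 1 array. The protein table of the study was used for names only. The members, lists, motifs and classes (textbook classes) were chosen with earlier results of these data known. Values were given for collagen genes at or above the median signal, and for those with FC 1.5 or more and a value of at least 56.1, the median of all values. Other values were chosen with the values known. In each pathway list the bright member with the largest change was named where none passed. Alternatives were quantile normalization, loess centring (span 0.3), centring on the median, offsets of 16 and 50, a filter at 56.1, other probe sets and other thresholds. The second brightest probe set and a minimum of 10 units were added after the data were seen. The work used Python 3.11.15 with statsmodels 0.14.6, matplotlib 3.10.9, numpy 2.4.6 and pandas 2.3.3, and the code was tested on simulated data.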

Additional observations from a re-analysis of the deposited data

How the results depend on the processing

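Against 4 collagen genes higher and 4 lower with FC 1.5 or more, quantile normalization and loess centring each gave 9 higher and 3 lower, among them all 4 of the former and 3 of the latter, and centring on the median gave 5 and 4. An offset of 16 gave 2 and 3, an offset of 50 gave 0 and 1, and the filter on low signal, which kept 27 genes, gave 1 and 0. Over all 19775 named genes the counts were 1921 higher and 3469 lower without an offset. They were 1047 and 2026 with an offset of 16, 357 and 572 with an offset of 50, and 2229 and 2998 after centring on the median. With probe sets of suffix _x_at, _s_at or _a_at left out (37 genes) the counts were 5 and 7, for the mean of a gene's probe sets 5 and 13, with any probe set 12 and 23, and with the second brightest one (35 genes) 3 and 14. FC 1.2 gave 12 and 9, FC 2 gave 2 and 3, and a difference of 100 linear units in addition to FC 1.5 gave 0 and 0. Over all 19775 named genes FC 1.2 gave 3582 higher and 6098 lower. Counts over all named genes were not made for the other thresholds, the filter or the other choices of probe sets. Those collagen counts therefore have no share to be set against. The median log2 FC of -0.01 became 0.10 after quantile normalization, loess centring (0.104) or median centring (0.098), -0.13 with the mean over probe sets and -0.25 with the second brightest. Of the 8 genes past FC 1.5, COL1A2 turned to -0.65 without those suffixes and to -0.61 with the mean, COL11A2 to -0.25 without those suffixes and COL6A5 to 1.09 with the mean. Among the 14 brighter genes, no scaling or offset led to FC 1.5, but COL4A3 had 1.37 without those suffixes, and with the mean COL12A1 had -1.06 and COL13A1 had 0.96 on the log2 scale, readings that draw on dim probe sets. COL4A6 had -1.14 in its second brightest probe set, which was bright. No paired analysis was possible because each surface has 1 array.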
